A study of Homo sapiens with 97 samples.

Results

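The transcripts described here are those of 10 genes of the heterogeneous nuclear ribonucleoprotein (hnRNP) family: HNRNPA1, HNRNPA2B1, HNRNPC, HNRNPD, HNRNPDL, HNRNPH1, HNRNPH3, HNRNPK, HNRNPL and HNRNPU. The rule that picks them is a list of names and uses no measured value, though the list was drawn up with earlier results of these data known. They are 10 of the 60675 gene identifiers in each count table. All 10 passed the filter on low counts in every table. The study used HEK293T, a human embryonic kidney cell line, carrying the peroxidase APEX2 fused to sequences that direct it to 1 of 9 places: the cytosol (NES), the outer membrane (OMM) or matrix (MITO) of mitochondria, the lumen (KDEL) or the cytosol-facing membrane (ERM) of the endoplasmic reticulum, and, in the nucleus, its interior (NLS), the nucleolus (NIK), the lamina (LMA) or the pore (NucPore). In labelled cells biotin-phenol for 30 min was followed by 1 mM hydrogen peroxide for 1 min, which lets the enzyme tag RNA near it with biotin. Unlabelled cells received biotin-phenol without peroxide, and their RNA went through the same enrichment. Further libraries came from NES and OMM cells treated with cycloheximide, puromycin or the uncoupler CCCP, from NES and OMM cells after 3, 6, 9 or 30 min or 2 h of nocodazole (unlabelled libraries at 3 and 30 min only), and from nuclear and cytosol fractions. Each group compared held 2 libraries, and the series holds 97 libraries in 49 groups. The labels do not say that the 2 libraries came from separate cultures, so p-values measure only the spread between these libraries, which may be technical. The unlabelled controls carried the same transgene as the labelled cells, and whether a line was 1 clone is not given in the sources used here.

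The hnRNPs are abundant proteins that coat nascent RNA and act on splicing, export, stability and translation. Many of them bind their own pre-mRNA and limit their own level through poison exons or retained introns, and transcripts that keep such introns often stay in the nucleus. HNRNPA1 and HNRNPA2B1 shuttle between nucleus and cytoplasm. HNRNPD, also called AUF1, and its relative HNRNPDL bind AU-rich RNA, while HNRNPH1 and the shorter HNRNPH3 bind runs of G. HNRNPC binds U tracts and stays in the nucleus, HNRNPK binds C-rich RNA through KH domains, HNRNPL binds CA repeats, and HNRNPU, also called SAF-A, ties RNA to chromatin.

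In GENCODE 29 (GRCh38) 8 of the 10 genes have a transcript annotated as a retained intron, against 46.1% of 19969 protein-coding genes, and 9 have one annotated for nonsense-mediated decay, against 35.6%. The members also have more annotated transcripts of any kind, a median of 13 against 6, and these shares were not adjusted for that. HNRNPH1 lies on chromosome 5 at 179614178 to 179634784 (minus strand) with 50 annotated transcripts, 16 of them retained introns. Its protein-coding transcripts hold 22 distinct introns between coding exons, with alternative introns counted apart. A spanned intron here starts with GT, ends with AG and lies in an exon of a retained-intron transcript, with at least 20 bases on either side. In HNRNPH1 12 of the 22 are spanned. The same holds for 12 of 18 in HNRNPU (chromosome 1, 244840638 to 244864560, minus strand), 4 of 11 in HNRNPD, 3 of 12 in HNRNPA2B1, 2 of 15 in HNRNPL, 1 of 15 in HNRNPA1 (chromosome 12, 54280193 to 54287088, plus strand) and 1 of 16 in HNRNPK (chromosome 9, 83968083 to 83980616, minus strand). No such intron of HNRNPC, HNRNPDL or HNRNPH3 was spanned. The splice sites of 1 such intron per gene are shown, from GENCODE transcript sequences. They are those of HNRNPH1 and HNRNPA1, whose own counts rose with nuclear labelling, and of HNRNPK, whose counts fell. HNRNPU, which passed the test used here at none of the 9 untreated constructs, is shown as well. Each run holds 20 bases on either side of the exon border, 5′ to 3′ on the gene's strand, and the capitals mark the 6 outermost bases of the intron.
HNRNPH1 intron chr5:179616959-179617050 (minus strand), 5′ splice site: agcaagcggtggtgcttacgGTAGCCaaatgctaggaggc
HNRNPH1, same intron, 3′ splice site: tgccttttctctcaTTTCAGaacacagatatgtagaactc
HNRNPA1 intron chr12:54281503-54281794 (plus strand), 5′ splice site: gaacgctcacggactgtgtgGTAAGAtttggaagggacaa
HNRNPA1, same intron, 3′ splice site: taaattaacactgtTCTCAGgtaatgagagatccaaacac
HNRNPU intron chr1:244855045-244855423 (minus strand), 5′ splice site: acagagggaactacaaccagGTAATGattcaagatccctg
HNRNPU, same intron, 3′ splice site: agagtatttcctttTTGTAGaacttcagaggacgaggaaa
HNRNPK intron chr9:83970332-83970736 (minus strand), 5′ splice site: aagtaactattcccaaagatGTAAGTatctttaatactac
HNRNPK, same intron, 3′ splice site: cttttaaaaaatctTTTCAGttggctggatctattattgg
The HNRNPH1 intron is 92 bases long and 5 annotated transcripts keep it. The other introns are 292, 379 and 405 bases long, for HNRNPA1, HNRNPU and HNRNPK in that order, and are kept by 1, 2 and 1 transcripts. A table of counts per gene does not show whether a read came from such an intron, and the annotation behind the counts is not given in the sources used here.

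Total counts per library, in units of 1000000, ranged from 34.96 to 44.97 for the fractions, from 15.47 to 33.97 in the nocodazole course, from 22.75 to 55.76 among drug-treated cells and from 9.33 to 76.71 for the constructs. The lowest count of a member in an unlabelled library of the 9 constructs was 4360 (HNRNPH3). Some libraries lacked any count for many genes that were well expressed elsewhere (5 CPM or more on average, where CPM is counts scaled to 1000000 per library), up to 6.06% of such genes among the constructs (NIK labelled 1), 7.75% with the drugs (OMM cycloheximide unlabelled 2) and 16.3% with nocodazole (OMM 30 min unlabelled 2). The nuclear RNA MALAT1 was higher in NLS labelled libraries by 3.65 on the log2 scale and ACTB lower, at -1.35, while MT-CO1 was higher in MITO labelling, at 4.43. Of 4 genes looked for as expressed in HEK293T, VIM ranged from 208.9 to 989.5 CPM over these 36 construct libraries. NEFM, KRT18 and KRT8 had medians of 65.8, 39.7 and 8.17 CPM, and KRT8 had no count in 1 library. The blood, pancreas and liver markers HBB, INS, PTPRC and ALB had no count in 36, 36, 33 and 32 of 36 libraries. The connective tissue marker COL1A1, the fifth gene of that list, had a count in every library, with a median of 10.8 CPM and at most 30.7.

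Without labelling, the transcripts spanned a wide range of levels. CPM, in what follows scaled between libraries by TMM, per kilobase of annotated exon were highest for HNRNPA2B1, with a median of 229.6 over 18 unlabelled libraries (range 194.5 to 309.1), then for HNRNPK at 202.4 (179 to 244.5) and HNRNPC at 123.8 (111 to 189.6). HNRNPDL (93.1), HNRNPD (83.0), HNRNPA1 (77.3) and HNRNPH1 (72.3) followed, and HNRNPU (48.4), HNRNPL (47.3) and HNRNPH3 (45.8) were lowest. The ranges of all neighbours in this order overlapped. These values count only reads assigned to the gene itself. Over the labelled and unlabelled construct libraries named pseudogenes held a further median of 171.0% of the counts of HNRNPA1. For HNRNPL, HNRNPC and HNRNPK it was 31.8%, 27.9% and 13.7%. The place of HNRNPA1 in particular is thus uncertain. The exons of HNRNPU cover 22512 of its 23923 bases in this annotation, so its value per kilobase is set by that length.

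Nuclear labelling split the family. The transcript of HNRNPH1 rose most: its CPM was 2099 and 2282 in the NLS labelled libraries against 936 and 809 in the unlabelled ones, 1170 and 1233 against 596 and 569 at NIK, and 1348 and 1047 against 488 and 508 at LMA. Labelled and unlabelled libraries did not overlap at any of these places. The log2 fold change was 1.33 ± 0.17 (SE, n = 2 against 2) at NLS with an adjusted p of 3.618e-06, 1.04 ± 0.17 at NIK (0.0001296) and 1.26 ± 0.17 at LMA (3.329e-06), by edgeR's quasi-likelihood test with Benjamini-Hochberg adjustment over all genes. At NucPore it was 0.62 ± 0.17 and did not pass (adjusted p = 0.650), with 1142 and 944 against 680 and 676 CPM. The share of HNRNPH1 in the summed counts of the 10 members, which does not depend on scaling between libraries, was 21.6% and 22.5% with NLS labelling and 11.4% and 9.67% without. The authors' deposited table gives 1.66 for HNRNPH1 and 1.39 for HNRNPA1 at NLS on the log2 scale. For HNRNPH1 it gives 0.81 at NIK and 0.83 at LMA, below the 1.04 and 1.26 found here. Its columns are tagged 18C, and the constructs have 18 unlabelled libraries, so its controls may not be the 2 used here.

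**Figure D1:**
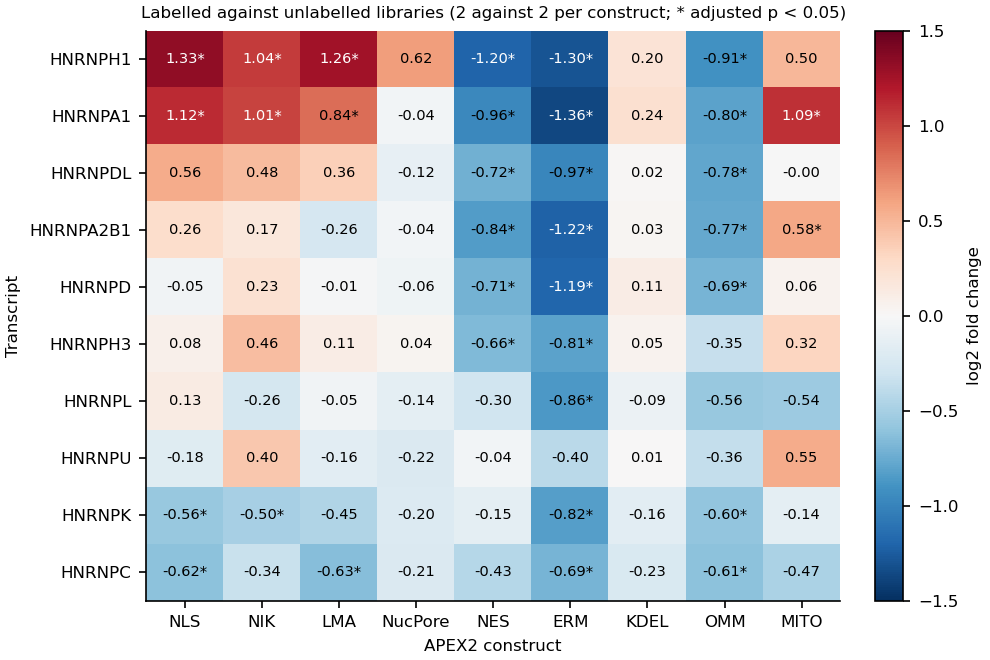
Log2 fold change of labelled against unlabelled libraries for the 10 transcripts (rows) at the 9 constructs (columns), with an asterisk where the adjusted p was under 0.05. HNRNPH1 and HNRNPA1, the latter from its own counts, are red at NLS, NIK and LMA, and every transcript except HNRNPU is significantly lower (blue) at ERM.

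HNRNPK and HNRNPC moved the other way with nuclear labelling, though not there alone. HNRNPK stood at 800 and 771 CPM in NLS labelled libraries and 1073 and 1250 in unlabelled ones, a log2 fold change of -0.56 ± 0.15 (adjusted p = 0.01529 by edgeR). HNRNPC stood at 633 and 582 against 902 and 963 CPM, a change of -0.62 ± 0.17 (adjusted p = 0.02965). Labelled libraries were below unlabelled ones for both genes. HNRNPK was also lower at NIK (-0.50 ± 0.15, adjusted p = 0.03735) and HNRNPC at LMA (-0.63 ± 0.18, adjusted p = 0.01807). Outside the nucleus HNRNPK and HNRNPC fell as well, at OMM (-0.60 and -0.61) and ERM (-0.82 and -0.69). Their highest values over the constructs were -0.14 (HNRNPK, MITO) and -0.21 (HNRNPC, NucPore). NLS set against NES labelling did not pass by edgeR for HNRNPK (-0.41, adjusted p = 0.4222) or HNRNPC (-0.19, adjusted p = 0.9773). Among the remaining members HNRNPDL had the largest NLS value, 0.56 ± 0.19, which did not pass (adjusted p = 0.0836), and HNRNPD, HNRNPH3, HNRNPL, HNRNPA2B1 and HNRNPU lay between -0.18 and 0.26.

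Counted over the family, 2 members rose and 2 fell at NLS with a median of 0.10, where 5.23% of 22680 tested genes were called and their median was 0.29. For genes of 5 CPM or more on average the median was 0.01 at NLS, -0.03 at NIK and 0.01 at LMA. At NIK 2 rose and 1 fell (median 0.31; 5.19% of all genes called, median 0.00), and at LMA 2 rose and 1 fell (median -0.03; 7.7% called, median 0.25). The falls were weakly held: leaving out any 1 of the 4 NLS libraries, or any 1 of the 4 NIK libraries, left the 2 rises alone, and with RLE size factors HNRNPC at NLS and HNRNPK at NIK did not pass. At LMA each of labelled 1, labelled 2 and unlabelled 1 did the same, and without LMA unlabelled 2 only HNRNPH1 rose and HNRNPC fell. At NucPore 0 members and 0.0% of all genes were called by edgeR, while DESeq2 called 1 member and 237 genes and an unadjusted p under 0.05 was reached by 1 member and 1352 genes. Both NIK labelled libraries lacked counts for 2.94% to 6.06% of well-expressed genes, and the part of this in the NIK values was not tested.

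**Figure D2:**
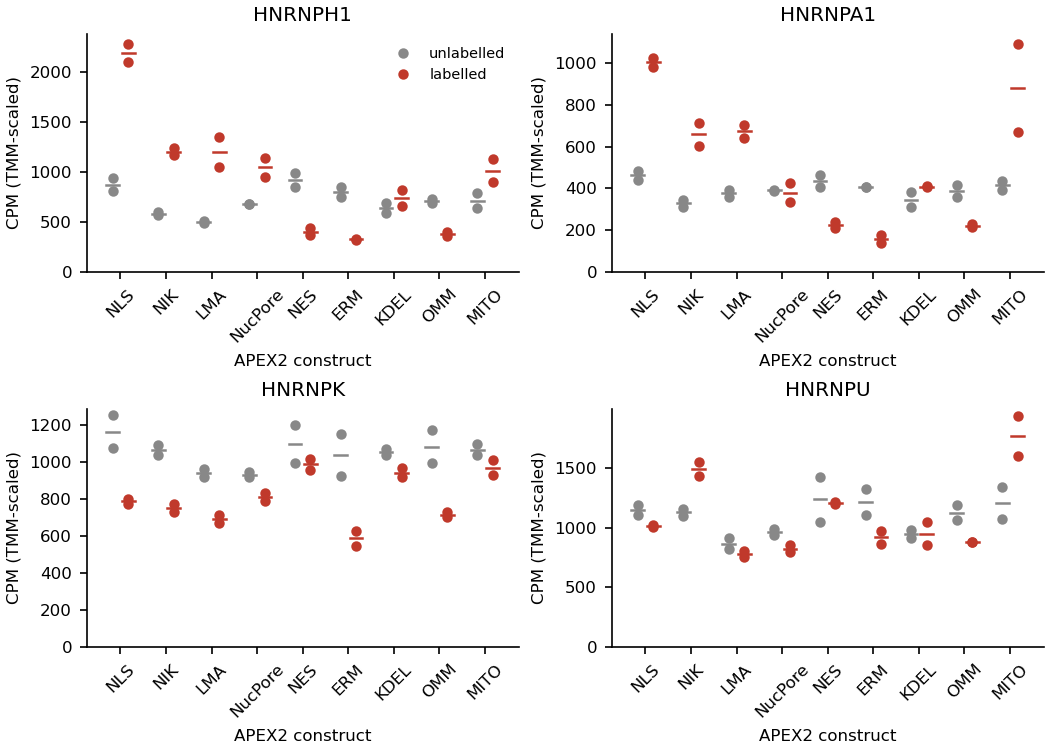
CPM in each library (points; bars are the mean of 2 libraries) of HNRNPH1, HNRNPA1, HNRNPK and HNRNPU at the 9 constructs, unlabelled in grey and labelled in red. HNRNPH1 reaches 2099 and 2282 CPM with NLS labelling, and HNRNPK falls from 1073 and 1250 to 800 and 771 CPM.

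HNRNPA1 rose in the nucleus in the counts assigned to the gene itself. Those were 984 and 1026 CPM in NLS labelled libraries against 486 and 439 in unlabelled ones, a log2 fold change of 1.12 ± 0.18 (adjusted p = 0.000127 by edgeR), with 1.01 ± 0.18 at NIK and 0.84 ± 0.18 at LMA. The tables also list 75 pseudogenes named after HNRNPA1, and these copies held more counts than the gene: a median of 171.0% of its counts over the 36 construct libraries. HNRNPA1P48 and HNRNPA1P7 carried 48.8% and 38.4% of the pseudogene CPM. That proportion moved with the labelling. It was 52.3% and 49.0% in NLS labelled libraries and 147.4% and 170.6% in unlabelled ones, 62.3% and 73.9% against 220.2% and 212% at LMA, and 215.7% and 257.9% against 155.7% and 169% at NES. Summed pseudogene CPM was 514 and 503 in NLS labelled libraries against 716 and 749 in unlabelled ones, the opposite order to the gene.

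Summing pseudogene counts into the gene, an alternative chosen after seeing the data, left 0.34 ± 0.19 at NLS (adjusted p = 0.317), 0.19 ± 0.19 at NIK (0.654) and -0.07 ± 0.19 at LMA (0.907), so that no nuclear rise of HNRNPA1 passed and the LMA value changed sign. The summed values at NES (-0.60 ± 0.19, adjusted p = 0.0701) and OMM (-0.56 ± 0.19, 0.0888) also missed the threshold, while that at ERM (-1.27 ± 0.19, adjusted p = 6.659e-06) held. How reads that match several near-identical copies were counted is not given in the sources used here, and each HNRNPA1 value is therefore uncertain. For HNRNPH1 the named pseudogenes held at most 1.11% of the gene's counts. For HNRNPC, HNRNPL and HNRNPK the medians were 27.9%, 31.8% and 13.7%, and among the 9 construct comparisons the sum changed 1 of their calls, that of HNRNPK at LMA, which then passed (-0.50 ± 0.15, adjusted p = 0.02895). In the remaining comparisons it changed 2 more, both at NES over nocodazole.

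**Figure D3:**
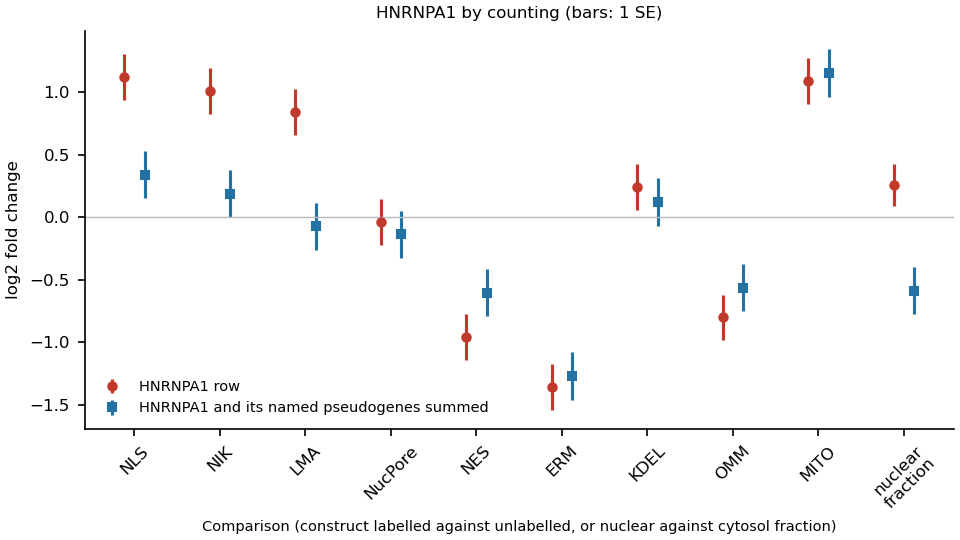
Log2 fold change of HNRNPA1 (± 1 SE) from the counts of the gene alone (red circles) and with its named pseudogenes summed in (blue squares), for 9 constructs and the nuclear against the cytosol fraction. At NLS the value drops from 1.12 to 0.34 with the sum, whereas at ERM (-1.36 and -1.27) and MITO (1.09 and 1.16) both counts give similar values.

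On the cytosolic side most of the 10 members fell, which did not hold at NES for the other hnRNP genes described below. With NES labelling 6 of 10 members fell and 0 rose (median -0.69; 3.84% of all genes called, median 0.18), with ERM labelling 9 fell (median -0.92; 12.9% called, median 0.00) and with OMM labelling 7 fell (median -0.65; 4.96% called, median 0.06). HNRNPH1 had 434 and 364 CPM in NES labelled libraries against 991 and 843 in unlabelled ones, a change of -1.202 ± 0.17 (adjusted p = 3.411e-05 by edgeR). HNRNPA2B1, the member highest in CPM without labelling, had 1459 and 1309 against 2864 and 2080 CPM, a change of -0.84 ± 0.15. HNRNPD, HNRNPDL and HNRNPH3 were at -0.71, -0.72 and -0.66. For HNRNPK (-0.15 ± 0.15), HNRNPL (-0.30 ± 0.18), HNRNPC (-0.43 ± 0.17) and HNRNPU (-0.04 ± 0.16) the NES difference did not pass. The NES count was 6 again without unlabelled 2, but 2 without labelled 1, 1 without labelled 2 and 2 without unlabelled 1, a library that lacked 3.37% of well-expressed genes.

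At ERM, where mRNAs of membrane and secreted proteins are translated, HNRNPA1 (-1.36 ± 0.19), HNRNPH1 (-1.30 ± 0.17), HNRNPA2B1 (-1.22 ± 0.15) and HNRNPD (-1.19 ± 0.17) were lowest, and HNRNPU (-0.40 ± 0.16, adjusted p = 0.102) was the member that did not pass. The CPM of HNRNPA2B1 there was 843 and 970 against 2239 and 1973, and that of HNRNPD 298 and 262 against 686 and 589. The other members called at ERM were HNRNPDL (-0.97 ± 0.19), HNRNPL (-0.86 ± 0.18), HNRNPK (-0.82 ± 0.15), HNRNPH3 (-0.81 ± 0.19) and HNRNPC (-0.69 ± 0.18). OMM values ran from -0.91 ± 0.17 (HNRNPH1) to -0.35 ± 0.19 (HNRNPH3), and HNRNPH3, HNRNPL and HNRNPU did not pass. ERM labelled 1 lacked 5.02% of well-expressed genes. Without ERM unlabelled 1 the ERM count was 6, and with the other 3 libraries left out in turn it was 7 to 9. The OMM count was 7 without unlabelled 1, 2 without labelled 1, 0 without labelled 2 and 2 without unlabelled 2, which lacked 4.06% of well-expressed genes. CPM is a share of a library, so less of a transcript cannot be told apart from more of the others, nor fewer cells with it from less in each.

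Setting the nuclear labelling effects against that of NES gave the difference itself. HNRNPH1 was higher relative to NES by 2.53 ± 0.24 at NLS (adjusted p = 2.384e-08 by edgeR), 2.25 ± 0.24 at NIK, 2.47 ± 0.24 at LMA and 1.82 ± 0.24 at NucPore (adjusted p = 0.0001526). HNRNPDL, which passed in no nuclear comparison on its own, was higher by 1.28 ± 0.27 at NLS, 1.197 ± 0.27 at NIK and 1.08 ± 0.27 at LMA. HNRNPA2B1 was higher at NLS (1.10 ± 0.21) and NIK (1.00 ± 0.21), and HNRNPD (0.94 ± 0.23) and HNRNPH3 (1.12 ± 0.26) at NIK. None of HNRNPA2B1, HNRNPD and HNRNPH3 passed at a nuclear construct on its own. HNRNPA2B1 was at 0.26 at NLS and 0.17 at NIK, and HNRNPD and HNRNPH3 were at 0.23 and 0.46 at NIK. Their NES values were -0.84, -0.71 and -0.66 in that order. HNRNPA1 gave 2.08 ± 0.26, 1.97 ± 0.26 and 1.80 ± 0.26 at NLS, NIK and LMA, and 0.95 ± 0.27 (adjusted p = 0.0529), 0.79 ± 0.27 and 0.53 ± 0.27 with pseudogenes summed in, none of which passed.

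HNRNPC, HNRNPK, HNRNPL and HNRNPU passed in none of these 4 comparisons, with values from -0.41 to 0.44. In all, 4 members were higher at NLS than at NES (2.3% of all genes called), 6 at NIK (4.85%), 3 at LMA (4.07%) and 1 at NucPore (0.688%), and 0 were lower. These 4 comparisons share the NES libraries. HNRNPA2B1 lost its call at NLS without any 1 of 7 of the 8 libraries, the exception being NES unlabelled 2. The NIK count was 6 without NIK labelled 2 or NES unlabelled 2, 4 without NIK unlabelled 1, NIK unlabelled 2 or NES labelled 1, 3 without NIK labelled 1 or NES labelled 2, and 2 without NES unlabelled 1. The LMA count was 2 without LMA unlabelled 2, NES labelled 1 or NES unlabelled 1 and 3 or 4 otherwise, and the NucPore count was 3 without NES unlabelled 2.

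The constructs could be ordered for each member, though few neighbours stood apart. Each place rests on the construct's own 2 unlabelled libraries, which for HNRNPH1 ranged from 488 CPM (LMA) to 991 CPM (NES). For HNRNPH1 the order was NLS, LMA, NIK, NucPore (0.62), MITO (0.50), KDEL (0.20), OMM, NES, ERM, and 1 of the 8 gaps between neighbours, that from KDEL to OMM, was over 2 combined standard errors (4.72 of them). HNRNPA1 and HNRNPD had 2 such gaps, HNRNPA2B1 and HNRNPDL 1, and the other members none. HNRNPU ran from 0.55 ± 0.16 at MITO and 0.40 ± 0.16 at NIK to -0.40 ± 0.16 at ERM and passed at none of the 9 constructs.

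Fractionation, a readout without APEX2 labelling, set HNRNPH1 apart again. Its CPM was 1698 and 1544 in the nuclear fractions and 603 and 701 in the cytosol fractions, a log2 fold change of 1.32 ± 0.18 (adjusted p = 5.841e-05 by edgeR). HNRNPC had 730 and 645 against 990 and 1158 CPM, a change of -0.64 ± 0.18 (adjusted p = 0.007184), and HNRNPK 780 and 697 against 978 and 1021, a change of -0.44 ± 0.17 (adjusted p = 0.04175). HNRNPD (-0.62 ± 0.17) and HNRNPH3 (-0.49 ± 0.16) were lower as well. HNRNPA1 had 664 and 561 against 487 and 537 CPM (0.26 ± 0.17, adjusted p = 0.204), and with pseudogenes summed in it was lower, at -0.59 ± 0.19 (adjusted p = 0.0173). HNRNPA2B1, HNRNPDL, HNRNPL and HNRNPU lay between -0.18 and -0.05 and did not pass.

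In this comparison 1 member rose and 4 fell (median -0.16), where 62.1% of 19115 genes were called and their median was 0.11. Among genes of 5 CPM or more on average, nearer to the members in level, the median was -0.26. A share of 5 in 10 thus lies below that of all genes. The count was 4 without cytosol 1, 1 without cytosol 2, 5 without nuclear 1 and 3 without nuclear 2, and HNRNPH1 was called each time.

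**Figure D4:**
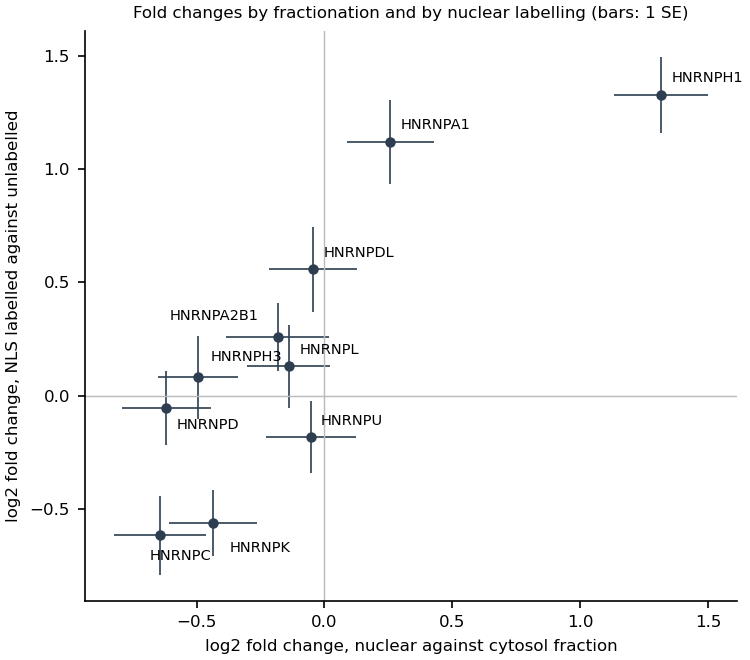
Log2 fold change in the nuclear against the cytosol fraction (x) and in NLS labelled against unlabelled libraries (y) for the 10 transcripts, with bars of 1 SE. HNRNPH1 is high on both axes (1.32 and 1.33), HNRNPC and HNRNPK are low on both, and HNRNPA1 is high on the NLS axis alone.

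In the lumen and the matrix few members passed the test. KDEL values ran from -0.23 ± 0.17 (HNRNPC) to 0.24 ± 0.18 (HNRNPA1). At KDEL 0 members and 0.0% of all genes were called by edgeR, while DESeq2 called none either and an unadjusted p under 0.05 was reached by 0 members and 45 genes. With MITO labelling HNRNPA1 rose by 1.09 ± 0.18 (adjusted p = 0.0003557), with 668 and 1094 against 394 and 434 CPM, and HNRNPA2B1 by 0.58 ± 0.15 (adjusted p = 0.0462), with 3436 and 3570 against 2395 and 2278, where 1.07% of all genes were called. These rises rest on TMM scaling. Before it, HNRNPA1 had 377.9 and 438.1 against 360.3 and 444.6 CPM. HNRNPA2B1 was then lower, at 1943 and 1430 against 2192 and 2332. Of the summed member counts HNRNPA1 made up 6.34% and 10.1% against 4.34% and 5.27%. The share of HNRNPA2B1 was 32.6% and 32.9% against 26.4% and 27.6%. With pseudogenes left aside, both shares were higher with labelling. With pseudogenes summed in HNRNPA1 was at 1.16 ± 0.19 and passed. It lost its call without MITO labelled 2 (0.73 ± 0.23, adjusted p = 0.186), and the count was 1 without labelled 1 and 0 without labelled 2. Without unlabelled 1 it was 1, and without unlabelled 2 it was 2, with 1 rise and 1 fall. In total RNA libraries of the same construct, which entered no test, HNRNPA1 made up 7.15% and 8.27% of the summed member counts with labelling and 4.14% and 4.26% without.

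Across the 9 constructs the log2 fold changes of some members ran in parallel. Pearson's r was 0.97 for HNRNPH1 with HNRNPDL, 0.96 for HNRNPD with HNRNPH3 and 0.95 for HNRNPA1 with HNRNPDL, and 0.17 for HNRNPH1 with HNRNPK, over 9 points that share their libraries within a construct. Set against the median profile of the 10 members, which includes each member, r was at least 0.91 for HNRNPA1, HNRNPA2B1, HNRNPD, HNRNPDL, HNRNPH1 and HNRNPH3, and 0.44 for HNRNPC and 0.39 for HNRNPK. Among 8517 genes whose mean level was 20 CPM or more, the 5 outside the family nearest to that profile were TATDN1 (0.98), ZUFSP (0.98), SNHG1 (0.97), NUP37 (0.97) and GMNN (0.96).

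Transcripts of other RNA-binding proteins were compared in the same way. Of 17 further hnRNP genes 1 rose and 2 fell at NLS, where 5.23% of all genes were called: HNRNPA0 (-0.73 ± 0.21, adjusted p = 0.03367 by edgeR) and HNRNPF (-0.53 ± 0.16, adjusted p = 0.04085) were lower. At NES 2 of the 17, PTBP1 (0.73) and HNRNPUL1 (0.74), rose and 0 fell (median -0.18, with 3.84% of all genes called). No member rose there. At ERM 8 of the 17 fell and 0 rose (12.9% of all genes called), and at OMM 8 fell and 0 rose (4.96%). In the nuclear fraction 10 of the 17 fell and 1 rose, a called share close to the 62.1% of all genes, with PCBP1 lowest among the named ones at -1.44 ± 0.17. Of 14 SR splicing factors 6 rose and 0 fell at NLS (5.23% of all genes called), among them SRSF11 (1.73 ± 0.24) and SRSF6 (1.41 ± 0.17), and at NES 0 rose and 6 fell (3.84% of all genes called), with SRSF7 at -1.29 ± 0.18 and SRSF3 at -1.06 ± 0.16. PTBP1, HNRNPUL1 and SRSF7 were chosen for mention after their values were seen. Among 13 identifiers of proteins that work with hnRNPs, SFPQ rose at NLS by 0.86 ± 0.17, ILF2 (-0.71) and PRMT1 (-0.76) fell there, and ELAVL1, an RNA-stabilising protein, was at -1.68 ± 0.19 in the nuclear fraction.

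The drugs acted on translation or on mitochondria. Cycloheximide stops ribosomes on their mRNA, puromycin releases the nascent chain and CCCP collapses the mitochondrial membrane potential. At OMM all 10 members fell with cycloheximide (median -0.79; 17.8% of 21441 genes called, median 0.40), 0 with puromycin (median -0.25; 2.13% called) and 2, HNRNPC (-0.72 ± 0.13) and HNRNPA2B1 (-0.58 ± 0.13), with CCCP (median -0.42; 6.85% called). The OMM cycloheximide count was 8 to 10 with 1 of its 4 libraries left out and 1 when only those 4 libraries were fitted, and the CCCP count was 1 without labelled 1, unlabelled 1 or unlabelled 2 and 0 without labelled 2. For genes of 5 CPM or more on average the OMM cycloheximide median was 0.10. With puromycin 4 members and 2224 genes had an unadjusted p under 0.05 by edgeR, and DESeq2 called 4 members. HNRNPA2B1 had 1070 and 1186 CPM in OMM labelled libraries with cycloheximide against 2688 and 2733 unlabelled (-1.26 ± 0.13, adjusted p = 7.332e-07), and 1708 and 1537 against 2274 and 2098 with puromycin (-0.43 ± 0.13, adjusted p = 0.102). HNRNPU had 905 and 1037 against 1442 and 1418 CPM with cycloheximide (-0.56 ± 0.14) and 1327 and 1369 against 1218 and 979 with puromycin (0.29 ± 0.14, not passing).

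The difference between the cycloheximide and the puromycin effect at OMM, a comparison added after the data were seen, was tested on its own. It passed for 6 members, all more negative with cycloheximide: HNRNPD (-0.95 ± 0.23), HNRNPU (-0.85 ± 0.20), HNRNPA2B1 (-0.83 ± 0.18), HNRNPH1 (-0.78 ± 0.21), HNRNPK (-0.67 ± 0.17) and HNRNPA1 (-0.63 ± 0.17). With pseudogenes summed in, the HNRNPA1 difference did not pass (-0.45 ± 0.16, adjusted p = 0.1138 by edgeR). Adjusted p lay between 0.006893 and 0.0370 by edgeR, the median of the 10 members was -0.71, and 5.58% of all genes were called, with a median of 0.37. Genes of 5 CPM or more on average had a median of 0.007. The same comparison at NES called 0 members (0.168% of all genes), while DESeq2 called 0 members and an unadjusted p under 0.05 was reached by 0 members and 2477 genes. The OMM calls were not stable. Their number was 7 without cycloheximide unlabelled 1, 5 without cycloheximide unlabelled 2, 1 without cycloheximide labelled 2, puromycin labelled 1 or puromycin labelled 2, and 0 without cycloheximide labelled 1, puromycin unlabelled 1 or puromycin unlabelled 2. Both unlabelled cycloheximide libraries at OMM lacked counts for 3.08% and 7.75% of well-expressed genes, and the part of this in the difference was not tested.

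At NES the number of members that fell was 4 with cycloheximide (15.7% of all genes called), 3 with puromycin (7.88%) and 3 with CCCP (8.42%). HNRNPA1, HNRNPA2B1 and HNRNPH1 fell under all 3 drugs, though HNRNPA1 in puromycin did not pass with pseudogenes summed in (-0.34 ± 0.11, adjusted p = 0.0751). HNRNPH1 was at -0.79 ± 0.15 with cycloheximide, -0.59 ± 0.15 with puromycin and -0.65 ± 0.15 with CCCP. HNRNPU rose with cycloheximide and CCCP. Its CPM at NES was 1405 and 1678 labelled against 1030 and 1188 unlabelled with cycloheximide (0.47 ± 0.14, adjusted p = 0.0263) and 1443 and 1764 against 1069 and 1169 with CCCP (0.52 ± 0.14, adjusted p = 0.0245), while with puromycin 0.44 ± 0.14 did not pass (adjusted p = 0.0639). With cycloheximide the count of called members was 2 to 4 with 1 of its 4 libraries left out, with puromycin 0 to 1 and with CCCP 0, so each of these libraries decided calls.

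In unlabelled cells 1 member passed in the comparisons between drugs. HNRNPC was higher with cycloheximide than with puromycin, at 910, 932, 969 and 998 CPM against 651, 667, 671 and 684, without overlap (0.51 ± 0.09, adjusted p = 0.002315 by edgeR), in a comparison that called 8.34% of all genes. It was the 1 member called there, and HNRNPA1 was close to the threshold (0.25 ± 0.09, adjusted p = 0.0847); without NES cycloheximide unlabelled 1 the count was 2. Cycloheximide against CCCP called 0 members (6.8% of all genes; 2 members by DESeq2 and 2 at an unadjusted p under 0.05), and puromycin against CCCP 0 (0.0746%; 2 members unadjusted and 1 by DESeq2).

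**Figure D5:**
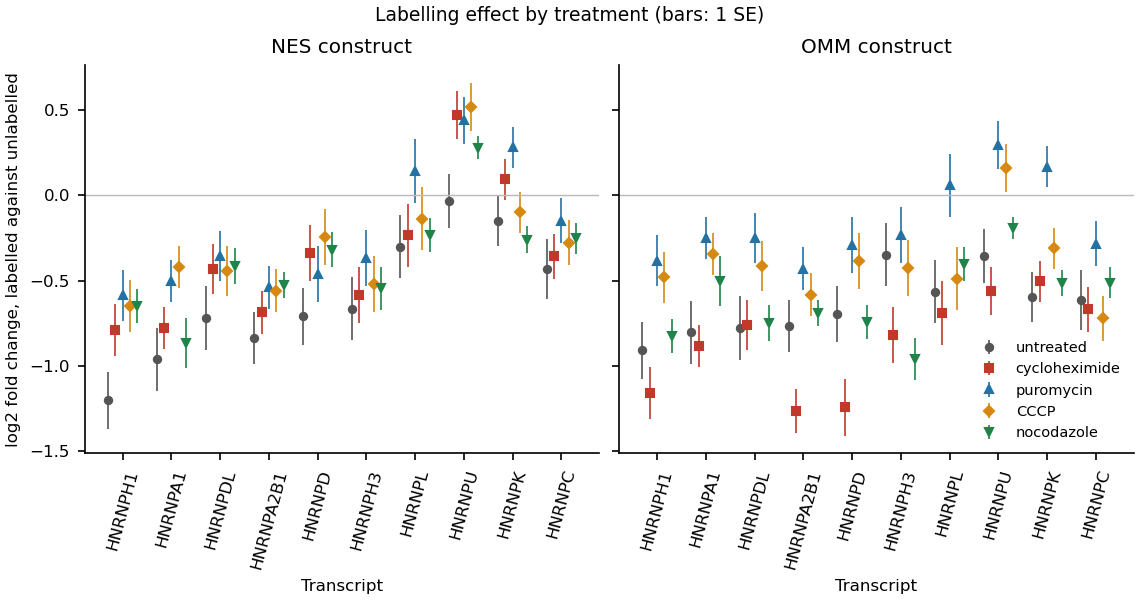
Log2 fold change of labelled against unlabelled libraries (± 1 SE) for the 10 transcripts at the NES (left) and OMM (right) constructs, untreated and with each drug; nocodazole is the mean over its times. Untreated, drug and nocodazole libraries were normalised in separate tables. HNRNPA2B1 at OMM is -1.26 with cycloheximide and -0.43 with puromycin, and HNRNPU at NES is 0.47 to 0.52 with cycloheximide and CCCP.

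Over the nocodazole course, which depolymerises microtubules, most members were lower in labelled libraries, all of them at OMM and 6 of 10 at NES. At OMM all 10 were lower (median -0.60; 19.6% of 19611 genes called, median 0.75), from -0.96 ± 0.12 for HNRNPH3 and -0.82 ± 0.10 for HNRNPH1 to -0.19 ± 0.07 for HNRNPU. For genes of 5 CPM or more on average the median was 0.16 at OMM and 0.05 at NES. HNRNPH3 had 135, 145, 158, 160, 174, 176, 190, 194, 199 and 204 CPM in the 10 OMM labelled libraries and 274, 288, 346 and 436 in the 4 unlabelled ones, without overlap. The OMM count was 8 to 10 when any 1 library was left out. All 4 unlabelled OMM libraries lacked counts for 2.98% to 16.3% of well-expressed genes, and the part of this in the OMM values was not tested.

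At NES 6 members fell and HNRNPU rose over the course (median -0.37; 7.93% of all genes called, median 0.25). HNRNPU had 1444, 1457, 1478, 1533, 1542, 1551, 1596, 1601, 1646 and 1660 CPM in the 10 labelled libraries and 1161, 1253, 1269 and 1427 in 4 unlabelled ones, without overlap (0.28 ± 0.07, adjusted p = 0.009628). HNRNPA1 (-0.86 ± 0.15), HNRNPH1 (-0.65 ± 0.10), HNRNPH3 (-0.55 ± 0.13), HNRNPA2B1 (-0.52 ± 0.08), HNRNPDL (-0.42 ± 0.11) and HNRNPK (-0.26 ± 0.08) were lower. With pseudogenes summed in, HNRNPK did not pass (-0.24 ± 0.08, adjusted p = 0.0576) and HNRNPC did (-0.27 ± 0.08, adjusted p = 0.0337). The NES count was 4 without 3 min unlabelled 2 or without 30 min unlabelled 2, and 6 to 9 without any other library. HNRNPU lost its call without 3 min unlabelled 2, 30 min unlabelled 1, either 6 min labelled library or 2 h labelled 1. Unlabelled 2 at 3 min lacked 6.77% of well-expressed genes.

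Within the course no member passed a test of time. Labelled libraries at 2 h against 3 min called 0 members at NES (0.0255% of all genes; 0 members by DESeq2 and 2 at an unadjusted p under 0.05) and 0 at OMM (0.484%; 2 members unadjusted and 0 by DESeq2). The largest value was HNRNPH1 at NES, 598 and 544 CPM at 2 h against 445 and 420 at 3 min (0.40 ± 0.17), which did not pass. Unlabelled libraries at 30 against 3 min called 0 members (3.37% of all genes; 2 members unadjusted and 1 by DESeq2), with 1 called without any 1 of OMM 3 min unlabelled 1, NES 3 min unlabelled 1, OMM 30 min unlabelled 1, OMM 30 min unlabelled 2 and NES 30 min unlabelled 2, and 2 without NES 30 min unlabelled 1.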

How the data were processed

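Poly(A) RNA of labelled and unlabelled HEK293T cells was sequenced, with matrix total RNA as well. The authors deposited raw counts per gene, made with Trimmomatic, STAR and HTSeq on GRCh38 per the submitters' processing notes; versions, annotation and the handling of multiply matching reads are not given in the sources used here. The authors also deposited log2 fold changes with p-values from DESeq2. Names for 36149 identifiers came from the deposited table and for 21296 from GENCODE 29, and 3230 had none. Each table (constructs, fractions, drugs, nocodazole) was fitted on its own with edgeR 4.0.16 in R 4.3.3: TMM scaling, filterByExpr, a trended dispersion, a group-means model over all groups of the table, and the quasi-likelihood test, with Benjamini-Hochberg adjustment over all genes and an adjusted p under 0.05. The trended dispersion was chosen for speed after results were seen. SE is the log2 fold change over the root of F. Drug labelling effects in cycloheximide and puromycin were compared after the data were seen. The nocodazole comparison averaged its times, with unlabelled libraries at 3 and 30 min. The repeat run of the second MITO labelled library was not used. The code was tested on simulated data. Members and gene lists were chosen with earlier results of these data known. The naming rule covers all members in every comparison, those not passing partly as counts or ranges, up to 4 genes of each other list by p in the NLS or fraction comparison, and the 5 genes most like the members' median profile. Every result was also computed with DESeq2 1.42.0, with RLE scaling, without the filter, with a replicate block, with summed pseudogenes and without each library in turn. Other controls were used for the labelled against unlabelled construct comparisons alone. Fits on only the libraries compared were run for all comparisons but the fractions. Low-complexity libraries were left out where their group kept another library. A result for 1 gene of the other lists is not reported here.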

Additional observations from a re-analysis of the deposited data

Results flagged for a closer look

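The differences listed here are those where the labelling effects of 2 groups under the same contrast were themselves compared and the difference passed edgeR's test. Each group held 2 libraries, and the outlier check needs at least 4, so it could not be run.

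Relative to NES, the log2 labelling effect at NLS was higher by 2.082 for HNRNPA1, 1.097 for HNRNPA2B1, 1.279 for HNRNPDL and 2.531 for HNRNPH1. At NIK it was higher by 1.973 for HNRNPA1, 1.003 for HNRNPA2B1, 0.9388 for HNRNPD, 1.197 for HNRNPDL, 2.247 for HNRNPH1 and 1.122 for HNRNPH3. At LMA it was higher by 1.804 for HNRNPA1, 1.081 for HNRNPDL and 2.468 for HNRNPH1, and at NucPore by 1.823 for HNRNPH1. The HNRNPA1 differences did not pass with its pseudogenes summed in.

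At OMM the labelling effect in cycloheximide minus that in puromycin was -0.6343 for HNRNPA1, -0.8344 for HNRNPA2B1, -0.9504 for HNRNPD, -0.7769 for HNRNPH1, -0.6741 for HNRNPK and -0.8531 for HNRNPU. The HNRNPA1 value did not pass here either with pseudogenes summed in (-0.4527, adjusted p = 0.1138).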

How the results depend on the processing

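Of the single-member values under the alternatives, 3263 kept their direction and side of the threshold, 327 no longer passed and 96 newly passed. A further 152 changed sign without passing in either fit. In 2 cases a value that passed in 1 of the fits changed sign: HNRNPA1 at LMA (-0.07151) and in the nuclear fraction (-0.5871), both with pseudogene counts summed into the gene. The HNRNPH1 calls at NLS, LMA and ERM, against NES at NLS, NIK and LMA, and in the fractions held under every alternative run. With 2 libraries per group, calls near the threshold depend on single libraries. The causes were not tested.

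The remaining numbers in this part count called members. With DESeq2 they were 6 at NIK, 1 at NucPore, 4 at MITO, 6 for LMA against NES, 4 for NucPore against NES, 6 for NES puromycin, 4 for OMM puromycin, 6 for OMM CCCP, 2 for unlabelled cycloheximide against CCCP, 1 for puromycin against CCCP, 2 for cycloheximide against puromycin and 1 for unlabelled nocodazole. With RLE size factors they were 2 for NucPore against NES and 1 for OMM puromycin. With the controls of all 9 constructs they were 6 at NIK, 5 at LMA, 3 at NucPore and 5 at MITO. Without the filter they were 2 at NLS, 2 at NES, 3 at OMM, 1 at MITO, 1 for the fractions, 3 for NES cycloheximide, 0 for NES puromycin, 0 for NES CCCP, 0 for OMM CCCP, 0 for unlabelled cycloheximide against puromycin, 1 for unlabelled nocodazole and 2 for OMM cycloheximide against puromycin. With only the libraries compared they were 0 at NIK, 0 at NES, 2 at OMM, 0 at MITO, 2 for NLS against NES, 1 for NIK against NES, 0 for NucPore against NES, 2 for NES cycloheximide, 2 for NES CCCP, 1 for OMM cycloheximide, 1 for OMM puromycin, 1 for OMM CCCP, 0 for unlabelled cycloheximide against puromycin and 0 for OMM cycloheximide against puromycin. Without low-complexity libraries, an alternative chosen after seeing the data, they were 2 at NES, 4 at OMM and 1 for NES puromycin.

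With the replicate block 1 member was called at MITO, and no other count moved by over 1.5 times. Same-numbered libraries share only a number: the mean correlation of their deviations ran from -0.159 (MITO) to 0.149 (fractions). Leaving out 1 library at a time gave 2 at NLS, 2 at NIK, 2 at LMA, 1 to 6 at NES, 6 to 9 at ERM, 0 to 7 at OMM, 0 to 2 at MITO, 3 to 4 for NLS, 2 to 6 for NIK, 2 to 4 for LMA and 1 to 3 for NucPore against NES, 1 to 5 for the fractions, 2 to 4, 0 to 1 and 0 for NES cycloheximide, puromycin and CCCP, 8 to 10 and 0 to 1 for OMM cycloheximide and CCCP, 1 to 2 for unlabelled cycloheximide against puromycin, 4 to 9 for NES and 8 to 10 for OMM nocodazole, 0 to 2 for unlabelled nocodazole and 0 to 7 for OMM cycloheximide against puromycin.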

Other observations

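In the MITO construct HNRNPA2B1 made up 23.3% and 26.4% of the summed member counts in labelled total RNA libraries and 23.3% and 22.3% in unlabelled ones. HNRNPH1 made up 16.4% and 13.2% in the labelled and 11.4% and 11.97% in the unlabelled total RNA libraries. In poly(A) libraries of the same construct HNRNPH1 made up 10.7% and 8.25% with labelling and 7.07% and 9.50% without. The total RNA libraries entered no test.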
